A study of Drosophila melanogaster with 16 samples.

Results

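The nuclear respiratory chain genes described here are the genes of the Drosophila melanogaster nuclear genome that encode subunits or assembly factors of the mitochondrial oxidative phosphorylation complexes and whose symbols begin with ND- (complex I), Sdh (complex II), UQCR- (complex III), COX4 to COX8 (complex IV) or ATPsyn (complex V). The symbol alone decided which genes are members, but this group of genes was chosen with earlier results of these data known. The rule found 81 genes among the 17299 rows of the single-cell count table and 62 genes among the 8467 rows of the bulk table. The complex of each member was likewise taken from its symbol, without a check of where its protein sits. By this assignment, the 81 members were 40 of complex I, 7 of complex II, 8 of complex III, 11 of complex IV and 15 of complex V. Of them, 18 carry the symbol of a chain subunit followed by an L, with or without a number, which marks a paralog. For COX6AL and ATPsynepsilonL that subunit is itself no member, since it goes by another name.

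Oxidative phosphorylation makes most of the ATP of neurons. Complex I takes electrons from NADH and complex II from succinate, complex III passes them to cytochrome c, complex IV hands them to oxygen, and complex V uses the resulting proton gradient to make ATP. The core subunits of complexes I, III, IV and V are split between the nuclear genome and mitochondrial DNA, whereas every subunit of complex II is nuclear. The study itself asked which genes cycle over the day in Drosophila clock neurons, above all in the little-known DN3 (dorsal neuron 3) group.

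The single-cell data came from GFP-positive cells sorted from brains of flies that carried UAS-EGFP under a broad clock neuron driver, Clk856-GAL4, combined with a split driver of DN3 neurons, R11B03-AD;VT002670-DBD. A total of 10 libraries were made with droplet 3′ sequencing at 6 time points (ZT02, ZT06, ZT10, ZT14, ZT18 and ZT22, where ZT counts the hours since lights on). ZT10 and ZT18 have 1 library and the other 4 time points have 2. They were collected on 5 dates, each of which holds 1 day library (ZT02, ZT06 or ZT10) and 1 night library (ZT14, ZT18 or ZT22). The bulk data were 2 libraries (A and B) for each of 3 sparser drivers at ZT02: split-0367, R11B03-AD;R77H08-DBD and R11B03-AD;VT055068-DBD, each driving UAS-EGFP. Every fly thus carried UAS-EGFP and a GAL4 or split GAL4, and no library came from flies without them. The labels give no age or sex.

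The single-cell libraries held 421 to 5751 cells and 3518519 to 32385361 UMIs (unique molecular identifiers, each counting 1 captured RNA molecule). All samples are labelled clock neuron, but 10500 of the 23921 cells held no UMI of the clock genes Clk and tim. Those cells served as the comparison group (Clk+tim-zero cells), and the 10916 cells with at least 4 UMIs of Clk, per, tim and cwo together were taken as clock-gated cells. The groups were not disjoint. A total of 659 cells without Clk and tim UMIs reached the clock gate through per and cwo, and they entered both sums unless stated. The share of cells that passed the clock gate ran from 25.9% to 68.3% across libraries, and since per and tim themselves change over the day, the gate can take a different mix of cells at different times. The 7 glial markers summed to 7.37 ± 3.81 UMIs per 10000 (SD, n = 10 libraries) in clock-gated cells and to 25.95 ± 10.34 in Clk+tim-zero cells, and the 5 neuronal markers to 61.79 ± 7.52 and 84.17 ± 9.35. Among 23866 distinct barcodes, 55 occurred in more than 1 library. The labels do not say that libraries of 1 time point came from separate fly crosses, so p-values measure the spread between these libraries.

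Levels are given as UMIs per 10000 UMIs of the same cells of a library. The method reads the 3′ end of each RNA once, so these levels are not divided by gene length. Of the 81 members, 5 had no UMI in any cell (ATPsynGL, ND-24L, UQCR-14L, ND-20L and ND-B14.5AL), 6 had 3 to 36 UMIs over all cells (among them SdhBL with 3 and COX7AL with 36), and 70 had 50 or more. All 5 members without a UMI, and 5 of the 6 with few, carry a paralog symbol. The exception is ND-B8, a complex I subunit, with 35 UMIs. The 18 paralog symbols together made up 0.05% of the members' UMIs in clock-gated cells.

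In clock-gated cells the members summed to 207.4 ± 31.5 UMIs per 10000 (SD, n = 10) beside 105.0 ± 13.5 for the 13 protein-coding genes of mitochondrial DNA. Complex V held 35.2% of the members' UMIs, complex I 28.1%, complex IV 22.8%, complex III 10.3% and complex II 3.59%. The most abundant member by this measure was ATPsynC, which encodes the ring of the ATP synthase rotor (3R, 31216145 to 31219630, minus strand), at 17.7 ± 2.60 UMIs per 10000. It was followed in complex V by ATPsynG, a membrane-part subunit (2L, 10975522 to 10976399, minus strand), at 7.52 ± 1.47, and by ATPsynbeta, the catalytic subunit (4, 1031484 to 1034917, plus strand), at 7.49 ± 1.37. In complex IV, COX7A (3R, 8339944 to 8341043, minus strand) reached 9.42 ± 1.69, COX6B (X, 19740537 to 19744335, minus strand) 8.54 ± 1.21 and COX4 (2L, 19958713 to 19960065, plus strand) 7.75 ± 1.12. These 3 are nuclear subunits that surround the catalytic core of the oxidase.

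In complex III, the small subunits UQCR-Q (3L, 17474761 to 17476124, plus strand), UQCR-14 (X, 16286288 to 16286988, plus strand) and UQCR-11 (3L, 25120709 to 25126171, plus strand) were at 5.01 ± 0.99, 4.78 ± 1.001 and 3.70 ± 0.62 UMIs per 10000. Among the members counted under complex I by their ND- symbol, the highest was ND-MLRQ (3L, 23339326 to 23345936, plus strand), at 4.67 ± 1.21. It was followed by ND-ACP, the mitochondrial acyl carrier protein (3L, 1329949 to 1331631, plus strand), at 2.72 ± 0.46, and ND-B22, an accessory subunit (2L, 13370103 to 13371110, minus strand), at 2.57 ± 0.46. In complex II the membrane anchor SdhC (3R, 11208887 to 11209849, minus strand), the iron-sulfur subunit SdhB (2R, 6807626 to 6809172, plus strand) and the second anchor SdhD (3R, 23759483 to 23760600, minus strand) were at 2.21 ± 0.31, 2.14 ± 0.40 and 1.61 ± 0.30. ATPsynG and ATPsynbeta, COX7A and COX6B, COX6B and COX4, UQCR-Q and UQCR-14, ND-ACP and ND-B22, and SdhC and SdhB are neighbours in this order that differed by less than their SDs.

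All 81 members were found in the BDGP6 annotation, whose coordinates are those of the dm6 build that the submitters' processing notes name. They lay on 2L (14), 2R (16), 3L (17), 3R (19), 4 (2) and X (13). The exons of 7 members overlapped exons of another gene on the same strand, among them ATPsynC, COX6B, UQCR-Q, ND-MLRQ and ND-MWFE, and the exons of 30 overlapped a gene on the opposite strand, among them SdhB, SdhD, ND-B22, UQCR-14, ATPsynbeta, ND-B14.5A and ND-19. Whether counting used the strand is not given in the sources used here, so the counts of these genes may include or lack reads of their neighbours.

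Over the day, the summed level of the members in clock-gated cells was lowest in the morning and highest late at night. It was 173.6 and 183.7 UMIs per 10000 in the libraries of ZT02, 173.4 and 186.9 at ZT06, 206.6 at ZT10, then at night 206.6 and 195.0 at ZT14, 245.4 at ZT18, and 260.6 and 242.1 at ZT22. The ZT18 and ZT22 libraries lay above all others, whereas the ZT10 library and the ZT14 libraries overlapped. The mean was 184.8 ± 13.5 by day and 229.9 ± 27.8 at night (SD, n = 5 each), a ratio of 1.24, and the night library was the higher of the pair on 5 of 5 dates. By complex, the night to day ratio was 1.29 for complex I, 1.23 for complex II, 1.28 for complex III, and 1.22 for complexes IV and V. The night library was higher on 5 of 5 dates for complexes I to IV and on 4 of 5 for complex V. These sums were given no test.

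**Figure D1:**
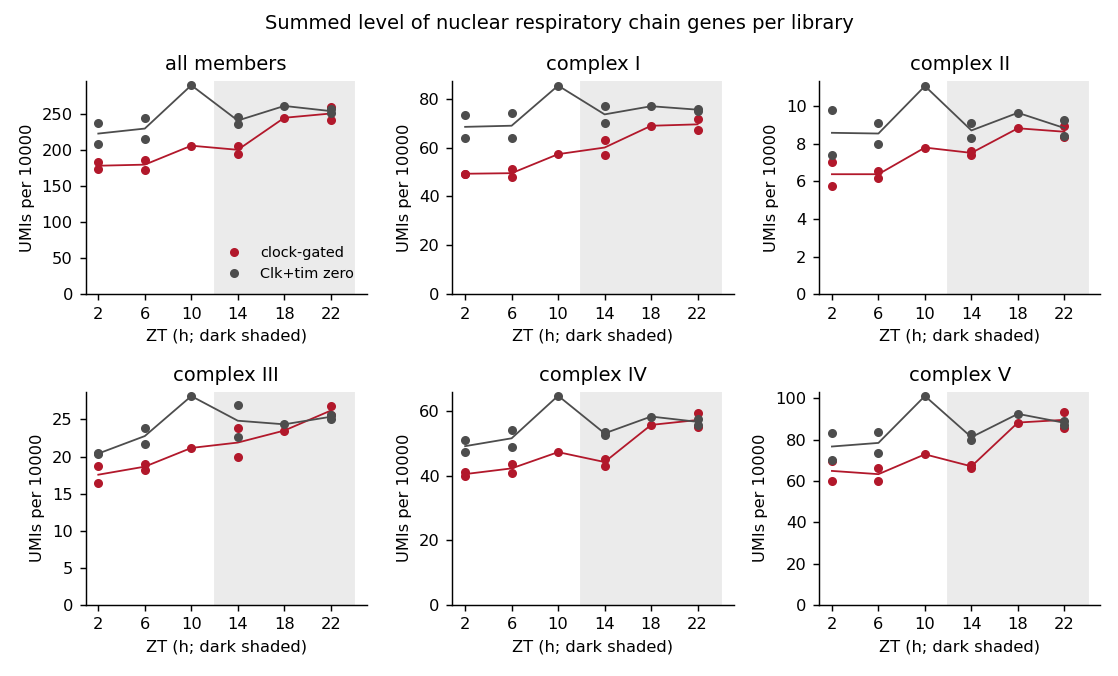
Summed level of the members (all and by complex, UMIs per 10000 UMIs, axis from 0) against ZT in hours, 1 point per library, lines through the means of each time point, for clock-gated and Clk+tim-zero cells, with the dark phase shaded. In clock-gated cells the sum of all members ran from 173.4 to 260.6 with the highest values at ZT18 and ZT22, whereas in Clk+tim-zero cells it ran from 209.2 to 290.7 with the highest value at ZT10.

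Other gene groups of the same cells were followed over the same libraries. The cytosolic ribosomal proteins had a night to day ratio of 1.04, the genes of mitochondrial DNA 0.99, the TCA cycle 1.13 and glycolysis 0.83, with glycolysis lower at night on all 5 dates. The 9 further nuclear respiratory chain genes that the symbols miss (blw, levy, cype, ox, RFeSP, Cyt-c1, Cyt-c-p, Cyt-c-d and sun) had a ratio of 1.19. In these 9 genes and in the TCA cycle the ZT18 and ZT22 libraries again lay above all others, at 48.9 to 57.0 against up to 44.8 UMIs per 10000 and at 22.98 to 23.4 against up to 20.7. In the ribosomal proteins, mitochondrial DNA and glycolysis they did not. The glial markers summed to 7.56 ± 4.03 by day and 7.19 ± 4.04 at night and the neuronal markers to 65.09 ± 9.33 and 58.49 ± 3.60. The part of such differences in the members' levels was not tested.

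Single members were tested for a 24 h rhythm with edgeR's quasi-likelihood test of a cosine and sine term across all genes with at least 50 UMIs. The swing is the distance from trough to peak of the fitted curve on the log2 scale. In clock-gated cells 1 of the 66 members tested was rhythmic at an adjusted p under 0.05, against 1.22% of all 8912 genes tested. This was ND-B14.5A, an accessory subunit of complex I (X, 2172526 to 2173432, plus strand), with a swing of 0.82, a peak at ZT 17.8 h and an adjusted p of 0.0459. Its level was 1.41 and 1.21 UMIs per 10000 in the ZT02 libraries, 1.24 and 1.39 at ZT06, 1.57 at ZT10, then at night 2.19 and 1.82 at ZT14, 2.09 at ZT18, and 2.12 and 1.93 at ZT22. All 5 night libraries lay above all 5 day libraries. In Clk+tim-zero cells ND-B14.5A ran from 1.70 to 2.37 UMIs per 10000, and day and night overlapped. The call of ND-B14.5A was lost without any one of the 10 libraries, with adjusted p values of 0.0590 to 0.156. Without ZT02 replicate 1 the count was 3 (ND-ASHI, ND-13A and ATPsynbeta), and it was 0 without any one of the other 9.

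The members shared a direction and a phase beyond that single call. Their median swing was 0.59 against 0.34 over all genes tested, and 42 of 66 had an unadjusted p under 0.05, against 12.3% of all genes. The fitted peak fell between ZT18 and ZT24 in 56 of 66 members, against 21.4% of all genes. The median swing was 0.59 in complex I, 0.52 in complex II, 0.58 in complex III, 0.50 in complex IV and 0.61 in complex V. The members are measured in the same libraries, so these counts are not independent of each other.

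The number of calls depended on how the libraries were modelled. With the date as a block 21 of 66 members were rhythmic, against 3.89% of all genes. They were 12 of complex I, 1 of complex II, 2 of complex III, 1 of complex IV and 5 of complex V. The largest swings among them were those of the complex I subunits ND-B14.5A (0.84), ND-ASHI (0.81), ND-19 (0.78), ND-B17.2 (0.73) and ND-PDSW (0.73), all with adjusted p values of 0.0238 to 0.0421. With DESeq2 without a block, 28 of 66 were rhythmic, against 5.76% of all genes, and 16 members were called in both fits. With the gate raised to 8 UMIs, 10 members were rhythmic, against 2.86%. Among cells of the Pdf, AstA, CCHa1 and CNMa Dh31 marker gates described below, with no minimum of clock genes, 27 of 62 members were rhythmic, against 8.18%. Of these, 16 were also among the 21 of the date block. This group covers few cell types, and each of these gates is among those in which members were later called rhythmic. It held 6 cells in ZT02 replicate 1 and 26 in ZT14 replicate 1, and up to 333 in the other libraries. In the other direction, no member was called with library size only (0 of 66, against 1.1%) or among cells up to 15000 UMIs (0 of 66, against 0.692%). In these fits 38 and 39 members had an unadjusted p under 0.05, counts given without the share of all genes.

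Related gene lists were counted in the same fits of clock-gated cells. Without a block, none of the 9 further nuclear genes, the 13 genes of mitochondrial DNA, the 11 TCA cycle genes, the 10 glycolysis genes or the 85 ribosomal protein genes tested was rhythmic. With the date as a block, 1 of the 9 was called (Cyt-c-p, the electron carrier between complexes III and IV), 4 of the 11 TCA genes (Idh3b, Scsalpha1, kdn and mAcon1), 1 of the 10 glycolysis genes (Ldh), and 0 of 13 and 0 of 85 of the mitochondrial DNA and ribosomal protein genes. The median night minus day difference (log2) was 0.05 over the 13 genes of mitochondrial DNA and 0.31 over the 9 further nuclear genes, while it was 0.33 over the members.

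In the comparison of night with day in clock-gated cells, no member passed an adjusted p of 0.05 (edgeR, 0 of 66, 0.0% of all genes). The unadjusted p was under 0.05 in 40 of 66 members, against 9.46% of all genes, and the night value was the higher in 61 of 66, against 50.4%. The lowest p values were those of ND-B14.5A, with a difference of 0.57 ± 0.09 (log2, SE, adjusted p = 0.0600), ND-19 with 0.52 ± 0.11 (adjusted p = 0.114) and SdhD with 0.46 ± 0.10 (adjusted p = 0.117). DESeq2 called 11 members, all higher at night, against 1.17% of all genes called higher. Leaving out the ZT10 library gave 3 calls in edgeR.

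For 10 of the 66 members all 5 night libraries lay above all 5 day libraries, against 1.16% of all genes. These were the complex I genes ND-30, ND-B14.7, ND-B15, ND-ASHI, ND-B14.5A, ND-13A, ND-B22 and ND-15, the complex II anchor SdhD and the complex V subunit ATPsynE. SdhD was at 1.20 and 1.38 UMIs per 10000 at ZT02, 1.28 and 1.29 at ZT06, 1.63 at ZT10, then at night 1.82 and 1.66 at ZT14, 1.99 at ZT18, and 1.95 and 1.89 at ZT22. The abundant ATPsynC had overlapping groups, with 15.1 to 18.1 by day and 15.1 to 22.6 at night. COX7A also overlapped, with 6.76 to 10.4 by day and 8.14 to 11.8 at night.

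**Figure D2:**
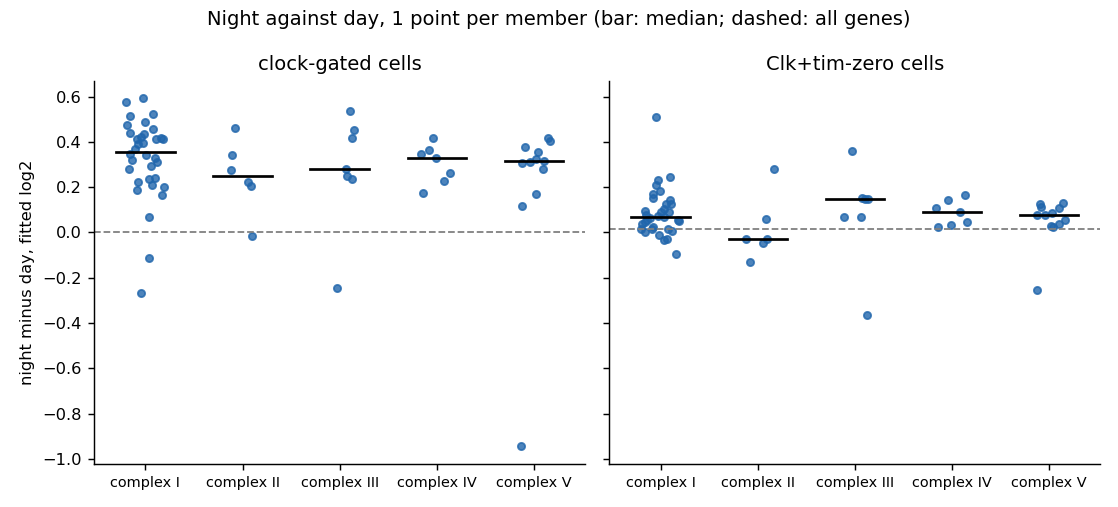
Night minus day difference of each member on the log2 scale (vertical axis) by complex (horizontal axis), 1 point per member, with the bar at the complex median and the dashed line at the median of all genes, in clock-gated and Clk+tim-zero cells. In clock-gated cells the complex medians were 0.36, 0.25, 0.28, 0.33 and 0.31 for complexes I to V and the median of all genes was 0.00.

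In Clk+tim-zero cells of the same libraries the members summed to 239.6 ± 32.1 UMIs per 10000 by day and 250.9 ± 9.78 at night, a ratio of 1.05, with the night library higher on 3 of 5 dates. The single libraries were 209.2 and 237.7 at ZT02, 215.8 and 244.9 at ZT06, 290.7 at ZT10, then at night 246.0 and 237.1 at ZT14, 261.9 at ZT18, and 257.9 and 251.5 at ZT22, so that the highest level was in a day library. No member was rhythmic (edgeR, 0 of 65, 0.0% of all genes), none had an unadjusted p under 0.05, and DESeq2 called none. The median swing was 0.18 against 0.29 over all genes. The members with the lowest p were Sdhaf3, a complex II assembly factor (swing 0.61), and the complex I subunits ND-B18 (0.33) and ND-B15 (0.28), each with an adjusted p of 0.9999. The night comparison gave 0 of 65 (0.0% of all genes), again with none at an unadjusted p under 0.05 and none by DESeq2, and a median of 0.07 against 0.02 over all genes. In no member did all 5 night libraries exceed all 5 day libraries, against 0.105% of all genes.

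Whether the rhythm differed between the cell groups was tested with an interaction term, with the library as a block. It passed in 0 of 70 members, against 0.567% of all genes, although 53 of 70 had an unadjusted p under 0.05, against 11.96% of all genes. The lowest p values were those of ATPsynD, a stalk subunit of complex V (swing of the difference 0.60, adjusted p = 0.0515), ND-SGDH of complex I (0.55, adjusted p = 0.0581) and SdhD (0.73, adjusted p = 0.0623). SdhD, whose clock-gated values were given above, ran from 1.88 to 2.70 UMIs per 10000 by day and from 2.08 to 2.20 at night in Clk+tim-zero cells. Among the other chain genes, Cyt-c-p passed with 0.97 (adjusted p = 0.0269). Without ZT02 replicate 2 the count of members was 2.

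Comparing levels and not rhythms, the members were lower in clock-gated cells than in Clk+tim-zero cells of the same library. Of the 70 members tested, 46 were lower, against 20.1% of all genes, and 2 were higher, against 21.3% (edgeR, library as block). The median difference was -0.26 (log2) against 0.01 over all genes. The ratio of the summed levels was 0.85 ± 0.10 (SD, n = 10) with a range of 0.71 to 1.01, and it was below 1 in 9 of 10 libraries, ZT22 replicate 1 being the exception. Complex I had the largest share of lower members with 27 of 35, followed by 4 of 6 of complex II, 5 of 8 of complex IV, 7 of 14 of complex V and 3 of 7 of complex III. Without the library block, the number of members called was 31 in place of 48.

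The largest differences among well-measured members were those of 3 complex I subunits. ND-13B (3L, 10693184 to 10694108, minus strand) was at 1.33 to 2.11 UMIs per 10000 in clock-gated cells, with a median of 1.65, and at 2.31 to 3.13 in Clk+tim-zero cells, with a median of 2.63. The groups did not overlap, and the fitted difference was -0.62 ± 0.06 (adjusted p = 8.4e-06). ND-19 (2R, 24664398 to 24665439, plus strand) differed by -0.61 ± 0.07 (adjusted p = 4.3e-05) and ND-B17 (2L, 15749319 to 15751078, minus strand) by -0.56 ± 0.05 (adjusted p = 5.3e-06). The 2 paralogs among the 5 largest rested on few UMIs. SdhAL, the paralog of the flavoprotein subunit, was higher by 1.64 ± 0.32 (adjusted p = 0.00155) with 265 UMIs in clock-gated and 58 in Clk+tim-zero cells, and ATPsynCF6L differed by -0.91 ± 0.26 (adjusted p = 0.0127) with 103 and 147 UMIs.

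COX7A was the only member with more than 1000 UMIs that was higher in clock-gated cells. It was at 6.76 to 11.8 UMIs per 10000 in clock-gated cells and at 5.85 to 9.36 in Clk+tim-zero cells, higher in each library, with a difference of 0.30 ± 0.04 (adjusted p = 0.000103). COX6B, of the same complex, ran the other way, at 8.54 ± 1.21 and 10.8 ± 0.996 UMIs per 10000 with a difference of -0.32 ± 0.06 (adjusted p = 0.000762). Of the 9 other nuclear chain genes 5 were lower and 1, Cyt-c-p, was higher (0.52 ± 0.11, adjusted p = 0.00248). All 13 genes of mitochondrial DNA were lower, with a median of -0.57 and a ratio of sums of 0.67, and 9 of 11 TCA genes were lower, whereas 39 of 85 ribosomal protein genes were higher and 2 lower. The glial markers had a ratio of 0.31 and the neuronal markers of 0.74 between the same sums. The cells of the 2 groups also differed in depth, with library medians of 5398 to 9996.5 UMIs in clock-gated and 3330 to 5631 in Clk+tim-zero cells. Among cells of 4000 to 10000 UMIs only, 37 of 65 members were called in either direction. The share of all genes is not given for this fit, so the count does not settle the part of depth. The part of the other cell types was not tested.

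**Figure D3:**
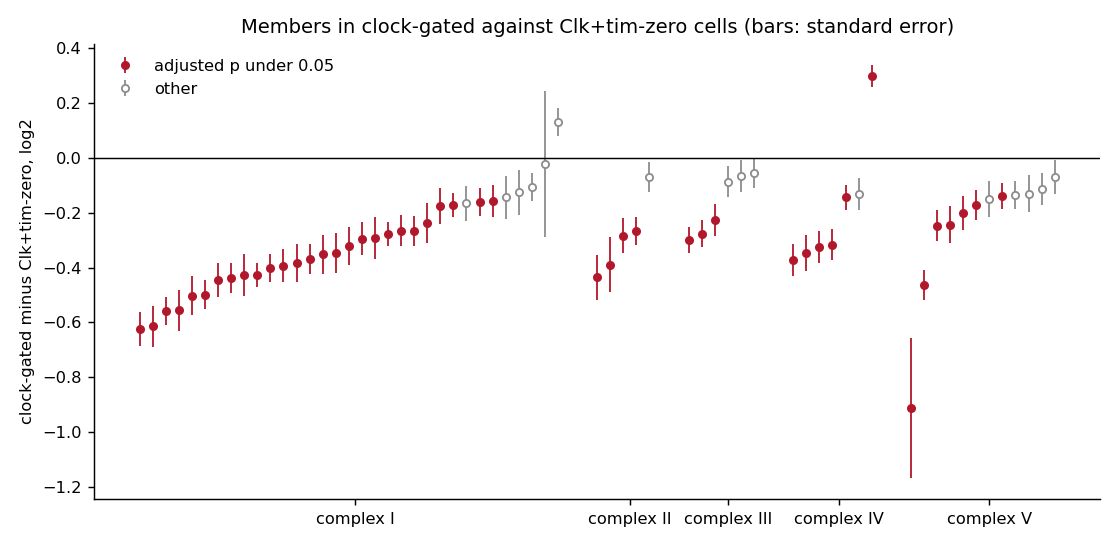
Difference of each member between clock-gated and Clk+tim-zero cells (vertical axis, log2, with SE bars), ordered within complexes I to V (horizontal axis), filled where the adjusted p was under 0.05. The 63 members with an SE under 0.3 are drawn, and most lie below 0, with COX7A at 0.30 and ND-13B at -0.62.

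Clock neurons are of many types, and the clock-gated cells were split by marker genes that are not members into 12 gates, which held 4276 cells (84 to 807 per gate). Cells that passed more than 1 gate (309) were left out of all gates. They stayed among the other clock-gated cells in comparisons of gates that they had not passed. The gates are called by their genes: Pdf, the neuropeptide of the ventral lateral neurons; the neuropeptides AstA and CCHa1; CNMa with Dh31; gl with sNPF; NPF with cry; CapaR; CrzR with ct; RunxA with DIP-zeta; br with Cht6; Pka-C3 with hbs; and CG34351 with mtt. In the 10 gates that had check markers not used in the gate, all of these (3 to 5 per gate) were at least 2-fold above the other clock-gated cells. Of the 4 markers shared by DN3 neurons, 3 were above the other cells in the RunxA DIP-zeta gate, 3 in the br Cht6 gate, 2 in the Pka-C3 hbs gate, 4 in the CG34351 mtt gate and 0 or 1 in the rest. The 7 glial markers summed to 0.321 to 3.30 UMIs per 10000 as the mean of each gate and to 4.60 to 7.93 in the other clock-gated cells, and their part in the comparisons was not tested. Depth differed as well. Library medians were 12935.5 to 19388 UMIs in the Pdf gate against 5356 to 7253 in the other clock-gated cells. They were 10962 to 16035 against 5635.5 to 7998 for NPF cry and 10527 to 14027 against 5348 to 7035 for CapaR, while the Pka-C3 hbs gate was the shallowest. The part of depth was not tested. Each gate was compared with the other clock-gated cells of the same libraries, with the library as a block. In this fit the median of all genes was below 0 in each gate, at -0.24 to -0.09. Scaling by library size only moved that median by -0.25 to 0.19, depending on the gate, so that the count in each direction, and the share of all genes in that direction, is given for both scalings.

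In the CrzR ct, NPF cry and br Cht6 gates more members were called higher than lower, and the higher share exceeded that of all genes under both scalings. The median difference of the members (log2) was 0.31, 0.21 and 0.02 in these gates, against -0.16, -0.12 and -0.15 over all genes. In br Cht6 the calls thus went with a median near 0. In the CrzR ct gate (208 cells, 8 libraries) 36 of 66 members were higher, against 6.93% of all genes, and 0 were lower, against 18.5%. All 7 complex IV members tested were among the 36, with 15 of 34 of complex I, 3 of 6 of complex II, 4 of 7 of complex III and 7 of 12 of complex V. The summed level was 242.1 ± 34.9 UMIs per 10000 against 210.8 in the other cells, higher in 7 of 8 libraries. COX8, a complex IV subunit (3L, 21538859 to 21539447, minus strand), was at 7.37 ± 2.003 against 5.46 ± 1.24, higher in 8 of 8 libraries, with a difference of 0.56 ± 0.08 (adjusted p = 2.8e-05). UQCR-6.4 (0.61 ± 0.10), ND-B14.5B (0.57 ± 0.10) and COX7C (0.52 ± 0.09) followed, and the largest fitted value, that of SdhAL (2.03 ± 0.54), rested on 23 UMIs. With library size only, 20 members were higher, against 4.43%, and 0 lower, against 24.4%. Of the other 9 nuclear chain genes 6 were higher too, while 11 of 13 mitochondrial DNA genes were lower.

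The NPF cry gate had 219 cells and 5 libraries, 4 by day and 1 at night. In this gate 24 of 65 members were higher, against 9.34% of all genes, and 0 lower, against 20.4%. Of these, 10 of 12 were in complex V, 5 of 7 in complex IV, 3 of 7 in complex III, 6 of 33 in complex I and 0 of 6 in complex II. ATPsynB, the peripheral stalk subunit b of complex V (3L, 9729999 to 9731224, plus strand), was at 7.16 ± 0.86 UMIs per 10000 against 5.17 ± 0.52, higher in 5 of 5 libraries (0.53 ± 0.09, adjusted p = 0.000445). ATPsyndelta (0.51 ± 0.10), ND-B18 (0.49 ± 0.10), UQCR-14 (0.47 ± 0.09) and COX7C (0.47 ± 0.09) were likewise higher in 5 of 5 libraries. The count was 14 without ZT02 replicate 2, 11 without ZT06 replicate 2 and 15 without ZT10. Library size only gave 18 higher, against 7.43%, and 1 lower, against 22.2%. In these cells 68 of 84 ribosomal protein genes were higher as well, and 10 of 13 mitochondrial DNA genes lower.

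In the br Cht6 gate (807 cells, 10 libraries) 19 of 66 members were higher, against 12.3%, and 4 lower, against 31.8%. ND-49, a core subunit of complex I, was at 2.54 ± 0.28 UMIs per 10000 against 1.73 ± 0.14, higher in 10 of 10 libraries (0.52 ± 0.06, adjusted p = 6.7e-07). SdhD (0.42 ± 0.07), SdhB (0.39 ± 0.06) and ND-23 (0.37 ± 0.07) were higher too, and library size only gave 21 higher, against 14.9%, and 2 lower, against 29.7%. ND-51L2 was called lower but had 0 UMIs in the gate in all 10 libraries, so no fold is given. In the same cells 81 of 85 ribosomal protein genes were lower.

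In the CapaR and Pka-C3 hbs gates more members were lower than higher in this fit, beyond the share of all genes. In the CapaR gate (84 cells, 4 libraries) 21 of 64 were lower, against 13.7%, and 0 higher, against 6.34%. The 4 libraries were 1 by day (ZT10) and 3 at night, with 11 to 17 cells each. ND-51, which binds NADH in complex I, was at 1.20 ± 0.46 UMIs per 10000 against 1.87 ± 0.18, lower in 4 of 4 libraries (-0.71 ± 0.19, adjusted p = 0.00337), and ND-SGDH (-0.71 ± 0.18), ND-ASHI (-0.68 ± 0.20), SdhB (-0.65 ± 0.17) and ND-23 (-0.64 ± 0.22) followed. The gene with the most UMIs among these 5 had 113 in the gate. The count was 12 without ZT10 and 8 without ZT18. With library size only, 0 were higher, against 7.3%, and 12 lower, against 12.5%.

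In the Pka-C3 hbs gate (373 cells, 9 libraries) 24 of 66 members were lower, against 17.5%, and 0 higher, against 6.96%. They included 9 of 12 members of complex V and 5 of 7 of complex IV, but 8 of 34 of complex I and 1 of 6 of complex II. The summed level of complex V was above that of the other cells in 2 of 9 libraries and that of complex IV in 1, whereas complex I was above in 6 and complex II in 8. COX6B was at 6.45 ± 1.03 UMIs per 10000 against 8.75 ± 1.20, lower in 9 of 9 libraries (-0.64 ± 0.09, adjusted p = 5.7e-05), and UQCR-14 at 3.73 ± 0.89 against 4.98 ± 0.91 (-0.62 ± 0.09, adjusted p = 7.8e-05). ND-PDSW (-0.67 ± 0.11) and ND-B17 (-0.52 ± 0.15) were lower as well, and Sdhaf3 (-1.04 ± 0.28) rested on 19 UMIs. With library size only, 2 members were higher, against 13.0%, and 6 lower, against 13.3%, so that the lower share no longer exceeded that of all genes. These cells were the shallowest of all gates, with library medians of 3516 to 6144 UMIs, and 82 of 85 ribosomal protein genes were lower.

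In the CCHa1 gate (260 cells, 8 libraries) 19 of 66 were lower, against 23.7% of all genes, and 0 higher, against 9.48%. ND-13B was at 1.14 ± 0.35 UMIs per 10000 against 1.74 ± 0.30, lower in 8 of 8 libraries (-0.53 ± 0.11, adjusted p = 0.000579), followed by SdhD (-0.50 ± 0.12), UQCR-6.4 (-0.45 ± 0.13), ND-13A (-0.41 ± 0.10) and ND-51 (-0.40 ± 0.12). In the Pdf gate (244 cells, 7 libraries) 17 of 66 were lower, against 26.0%, and 1 higher, against 11.5%. In both gates the share of lower members was thus near that of all genes. Library size only gave 38 lower members and 0 higher in each, against 30.6% and 7.21% of all genes in CCHa1 and 36.2% and 6.58% in Pdf. In the Pdf gate ND-13B (-0.99 ± 0.15), ND-75 (-0.77 ± 0.19), COX4 (-0.72 ± 0.17) and UQCR-C1 (-0.71 ± 0.14) were below the other cells in 7 of 7 libraries, and UQCR-11L (1.52 ± 0.50) rested on 14 UMIs. The Pdf transcript itself took 1806 to 2250 of every 10000 UMIs of these cells, which lowers the share of all other genes. Of the 13 mitochondrial DNA genes 6 were higher in the Pdf gate.

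In the other 5 gates the direction was mixed or turned with the scaling. In the AstA gate (519 cells) 11 of 66 members were higher, against 12.7%, and 9 lower, against 29.5%, which became 2 and 19 with library size only, against 8.36% and 35.7%. Here complex V had 5 higher and 0 lower members and complex I had 1 higher and 7 lower. COX6B (0.30 ± 0.05) and SdhA (0.31 ± 0.06) were higher and ND-23 (-0.34 ± 0.06), ND-B14.5B (-0.30 ± 0.06) and ND-13A (-0.29 ± 0.07) lower, each in 8 of 8 libraries. In the CNMa Dh31 gate (361 cells) 9 of 66 were higher, against 13.2%, and 0 lower, against 23.6%, which became 3 and 13 with library size only, against 7.74% and 33.6%. The count was 5 without either ZT14 replicate 2 or ZT18. COX7A was the clearest of them, at 14.5 ± 3.31 UMIs per 10000 against 9.83 ± 1.41, higher in 7 of 7 libraries (0.75 ± 0.09, adjusted p = 3.5e-05). ATPsynE (0.56 ± 0.10), ND-B18 (0.47 ± 0.09) and UQCR-14 (0.37 ± 0.09) followed, and ND-51L2 (2.03 ± 0.61) rested on 10 UMIs. In that gate 79 of 85 ribosomal protein genes were higher.

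In the gl sNPF gate (410 cells) 5 of 66 were higher, against 8.81%, and 5 lower, against 25.5%. With library size only, 14 were higher, against 15.9%, and 0 lower, against 22.3%. SdhA (0.30 ± 0.08) and ND-42 (0.29 ± 0.10) were higher, and ND-B17 (-0.32 ± 0.10), ND-B12 (-0.29 ± 0.09) and ND-MLRQ (-0.24 ± 0.07) lower. The total of 10 fell to 6 without ZT02 replicate 2, ZT10 or either ZT22 library, and to 0 without the library block. In the RunxA DIP-zeta gate (280 cells) 2 of 66 were higher, against 6.49%, and 11 lower, against 25.3%. ATPsynE (-0.39 ± 0.07), ND-B12 (-0.36 ± 0.09) and ATPsynF (-0.33 ± 0.06) were lower and SdhAL (1.34 ± 0.44, 17 UMIs) higher, while UQCR-11L had 0 UMIs in the gate. With library size only, 3 were higher, against 9.24%, and 4 lower, against 23.1%. The count of 13 fell to 6 without ZT10 or ZT18, to 7 without either ZT22 library and to 8 without either ZT02 library or ZT06 replicate 1. In the CG34351 mtt gate (511 cells) 1 of 66 was higher, against 7.61%, and 22 lower, against 22%, which became 7 and 3 with library size only, against 15.9% and 17.9%. COX7A was lower here in 10 of 10 libraries, at 7.76 ± 1.41 against 9.49 ± 1.69 (-0.45 ± 0.06, adjusted p = 7.5e-06). ND-B14.5A (-0.41 ± 0.09), ATPsynE (-0.35 ± 0.06), ND-B14.7 (-0.35 ± 0.09) and UQCR-14 (-0.33 ± 0.07) were lower as well.

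The rhythm was then fitted within each of the 10 gates with enough libraries, a fit chosen after the data were seen and without the date block, and members were called in 5 of them. In the Pdf gate 33 of 60 members were rhythmic, against 12.3% of all genes, with swings of 1.32 to 2.68, peaks at 18.1 to 23.3 h, and a median swing over all 60 of 1.44 against 0.79. The calls were 13 of 31 in complex I, 2 of 5 in complex II, 3 of 6 in complex III, 5 of 7 in complex IV and 10 of 11 in complex V. The members summed to 111.6 UMIs per 10000 at ZT02, 120.3 at ZT06, 114.4 at ZT10, then at night 125.8 at ZT14, 228.8 at ZT18, and 239.0 and 253.4 at ZT22. The ZT18 and ZT22 libraries thus lay apart from the others. They also lay apart in the other clock-gated cells of the same libraries, at 241.7 to 261.4 against 189.1 to 212.9. The night to day ratio was 1.20 in those cells and 1.83 in the gate. Of the other nuclear chain genes 7 of 8 were rhythmic in this gate, with 7 of 11 TCA, 8 of 10 glycolysis, 4 of 11 mitochondrial DNA and 0 of 83 ribosomal protein genes.

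ND-MWFE, an accessory subunit of complex I (2R, 13158666 to 13160190, plus strand), was at 0.421 UMIs per 10000 at ZT02, 0.507 at ZT06, 0.609 at ZT10, then at night 1.09 at ZT14, 2.05 at ZT18, and 2.41 and 2.20 at ZT22 (swing 2.68, adjusted p = 0.00294). ATPsynG was at 3.895, 2.90, 3.21 and 4.03 UMIs per 10000 from ZT02 to ZT14, at 7.49 at ZT18, and at 9.78 and 11.2 at ZT22 (swing 2.03, adjusted p = 0.00165). SdhD was at 0.421 at ZT02, 0.507 at ZT06, 0.724 at ZT10, then at night 1.30 at ZT14, 1.86 at ZT18, and 1.74 and 1.33 at ZT22 (swing 2.20, adjusted p = 0.00722). In all 3 genes the lowest values were at ZT02 to ZT10. ND-MLRQ (2.18) and ND-B22 (1.86) completed the 5 largest swings. The count rested on single libraries: it was 9 without ZT22 replicate 1, 11 without ZT22 replicate 2, 13 without ZT10, 18 without ZT18 and up to 47 without ZT02 replicate 2. With a minimum of 500 UMIs, 19 of 31 members were called.

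**Figure D4:**
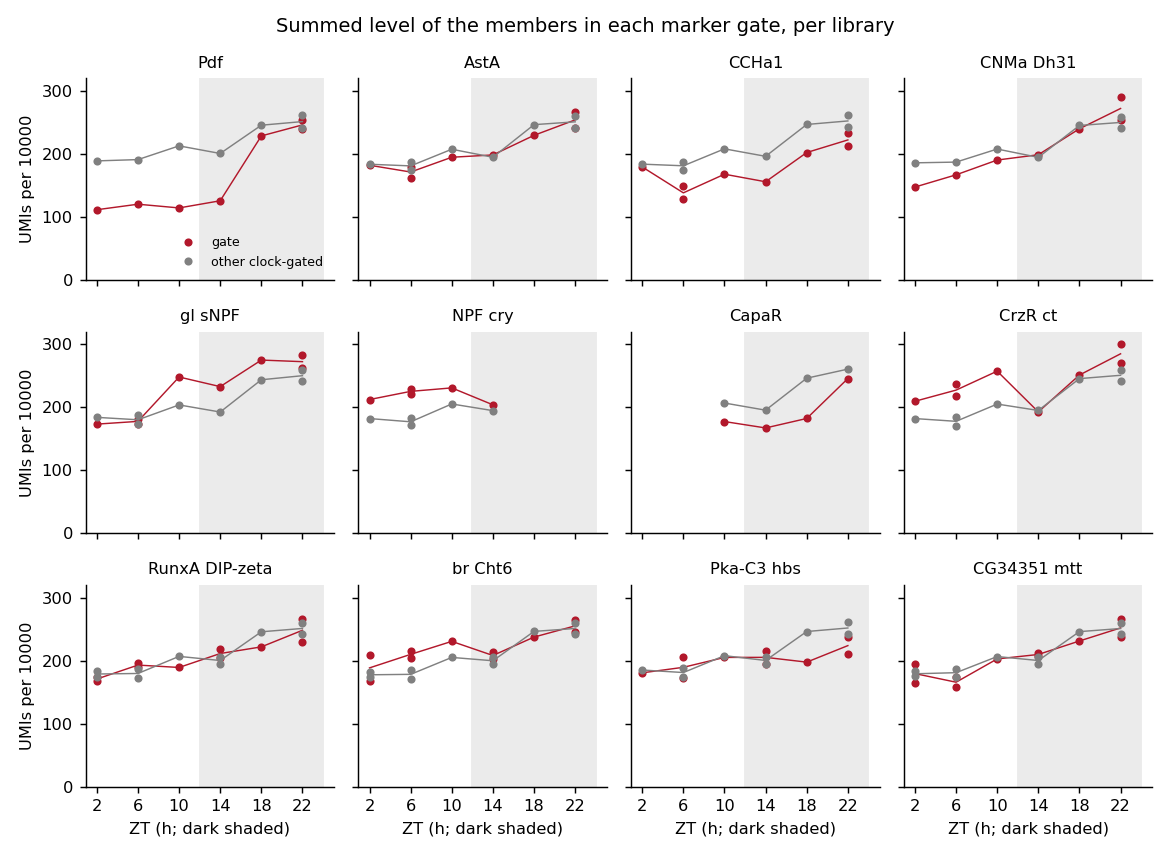
Summed level of the members (UMIs per 10000 UMIs, axis from 0) against ZT in hours in each marker gate and in the other clock-gated cells of the same libraries, 1 point per library with at least 10 cells in the gate, lines through the means. In the Pdf gate the sum was 111.6 at ZT02 and 239.0 and 253.4 at ZT22, while in the NPF cry gate, with 4 day libraries and 1 night library, it ran from 204.1 to 231.0.

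In the gl sNPF gate 14 of 61 members were rhythmic, against 6.39%, led by ND-B14.5A at 0.946 UMIs per 10000 at ZT02, 1.10 and 1.05 at ZT06, 1.86 at ZT10, then at night 2.26 at ZT14, 2.46 at ZT18, and 2.32 and 2.13 at ZT22 (swing 1.38, adjusted p = 0.00373). ND-MWFE (1.38), ND-ASHI (1.19), ND-B17.2 (1.10) and ND-B14 (1.02) followed. The count fell to 1 without either ZT06 library or ZT22 replicate 1, to 3 without ZT18 and to 4 without ZT22 replicate 2, and it was 9 with library size only. In the CCHa1 gate 15 of 60 were rhythmic, against 8.98%, with ND-15 (1.29), ND-ASHI (1.29), SdhA (1.16), ND-B18 (1.14) and ND-PDSW (1.13) the largest. ND-ASHI was at 1.31 at ZT02, 0.862 and 0.886 at ZT06, 0.873 at ZT10, then at night 1.28 at ZT14, 1.81 at ZT18, and 1.99 and 1.62 at ZT22. The count was 2 without ZT22 replicate 1, 3 without ZT22 replicate 2, 4 without ZT06 replicate 2, 7 without ZT18 and 8 without ZT06 replicate 1.

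In the AstA gate 9 of 61 were rhythmic, against 7.14%, with ND-19 (1.05), SdhD (1.03), ND-PDSW (0.84), ND-13A (0.81) and ND-ASHI (0.80) the largest. In the CNMa Dh31 gate 6 of 61 were rhythmic, against 10.2%, with ND-24 (1.92), ND-B14.5A (1.73), ND-B17.2 (1.72), ND-23 (1.30) and ATPsynG (1.21) the largest. The share in the CNMa Dh31 gate was near that of all genes. In the AstA gate the count moved beyond 1.5 times without each of the 8 libraries in turn (1 without ZT06 replicate 1, 2 without either ZT22 library, 5 without ZT06 replicate 2 or ZT18, 14 without ZT14 replicate 2, 17 without ZT10 and 19 without ZT02 replicate 2). In the CNMa Dh31 gate it was 29 without ZT02 replicate 2, 3 without ZT14 replicate 2, 2 without ZT18, and 1 without ZT06 replicate 2 or either ZT22 library.

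In the other 5 gates fitted, edgeR called no member rhythmic. The count was 0 of 60 in CrzR ct, against 6.45% of all genes, 0 of 59 in RunxA DIP-zeta (2.35%), 0 of 61 in br Cht6 (1.38%), 0 of 59 in Pka-C3 hbs (0.838%) and 0 of 61 in CG34351 mtt (0.858%). At an unadjusted p under 0.05 the counts were 6, 12, 4, 2 and 23. They are given without the share of all genes, so they are not read as an excess. No other tool was run within gates. The lowest p values belonged to ND-ASHI in CrzR ct (swing 1.10, adjusted p = 0.169), ND-B18 in RunxA DIP-zeta (1.15, adjusted p = 0.0837), ND-13A in br Cht6 (0.75, adjusted p = 0.226), ATPsynCF6 in Pka-C3 hbs (0.63, adjusted p = 0.520) and SdhA in CG34351 mtt (1.03, adjusted p = 0.137). In the CrzR ct gate 1 member was called without ZT02 replicate 2 or without ZT10. The night to day ratio of the summed level was 1.10 in CrzR ct, 1.24 in RunxA DIP-zeta, 1.13 in br Cht6, 1.10 in Pka-C3 hbs and 1.29 in CG34351 mtt, beside 1.83 in Pdf, 1.46 in CNMa Dh31, 1.35 in gl sNPF, 1.30 in AstA and 1.29 in CCHa1. The ratios of the gates with and without calls thus overlapped.

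A call in one gate and not in another is no test of a difference, so the rhythm of each gate was also compared with that of the other clock-gated cells by an interaction term, again a test chosen after the data were seen. In the Pdf gate 11 of 66 members differed, against 4.84% of all genes: ND-MWFE (swing of the difference 1.74, adjusted p = 0.0119), SdhD (1.63, adjusted p = 0.0425), ATPsynG (1.42, adjusted p = 0.00743), UQCR-11 (1.39, adjusted p = 0.0267), ND-MLRQ (1.37, adjusted p = 0.0197), COX6B, COX4, UQCR-14, ATPsynCF6, ATPsynD and ATPsynO. The median swing of the difference over all 66 was 0.98, against 1.04 over all genes. The count in the Pdf gate rested on single libraries, since it was 1 without ZT10 replicate 1, 1 without ZT22 replicate 1, 2 without ZT22 replicate 2, 7 without ZT18 replicate 1 and 24 without ZT02 replicate 2. In the CNMa Dh31 gate 1 differed, against 4.6%: ND-24, an iron-sulfur subunit of complex I (X, 17632089 to 17633509, plus strand), with 1.54 (adjusted p = 0.0378). ND-24 no longer passed without ZT06 replicate 2 (adjusted p = 0.172), ZT18 replicate 1 (0.173), ZT22 replicate 1 (0.0888) or ZT22 replicate 2 (0.0778). Its level there was 0.639 UMIs per 10000 at ZT02, 0.376 at ZT06, 0.978 at ZT10, then at night 1.17 at ZT14, 2.08 at ZT18, and 1.46 and 1.42 at ZT22. In the other 8 gates the count was 0 of 66: AstA (4.11% of all genes), CCHa1 (4.02%), gl sNPF (3.38%), CrzR ct (4.25%), RunxA DIP-zeta (1.66%), br Cht6 (2.78%), Pka-C3 hbs (3.2%) and CG34351 mtt (0.73%). At an unadjusted p under 0.05 the counts in these 8 were 2, 1, 6, 3, 1, 8, 4 and 0, again without the share of all genes.

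In the bulk libraries of the 3 sparser drivers, all from ZT02, no single member passed the test between drivers. Values are the authors' normalized signal per gene, not divided by length, from which whole reads could be recovered, 164631 to 505579 per library. In such bulk samples fewer cells of a type and less RNA per cell cannot be told apart. The members summed to 9798 and 11845 in the 0367 libraries A and B, 9344 and 11037 in R77H08, and 9601 and 9451 in VT055068, so that the drivers overlapped on this scale. Per 10000 recovered reads of the library, they summed to 298.6 and 330.8 in 0367, 291.4 and 296.5 in R77H08, and 255.4 and 267.6 in VT055068, and the drivers did not overlap. These sums were given no test. Of the 62 members 0 differed in 0367 from the mean of the other drivers, against 2.52% of all genes (limma on log2 of the value + 1), 0 in R77H08, against 2.38%, and 0 in VT055068, against 8.77%. At an unadjusted p under 0.05 there were 1, 2 and 1, given without the share of all genes, and edgeR on the recovered reads called 0 in each. The median difference was 0.12 in 0367, with 48 of 62 members above 0, 0.02 in R77H08, with 33, and -0.14 in VT055068, with 14, against 0.02, -0.07 and 0.04 over all genes.

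The lowest p values in 0367 were those of COX7A (0.56 ± 0.23, adjusted p = 0.292), ATPsyndelta (0.56 ± 0.27) and SdhC (0.54 ± 0.26). COX7A stood at 471.5 and 550.4 in 0367, 299.97 and 393.4 in R77H08, and 315.3 and 379.9 in VT055068. In R77H08 ND-13A was lowest, at 42.9 and 54.1 against 93.0 and 85.5 in 0367 and 103.4 and 74.5 in VT055068 (-0.86 ± 0.25, adjusted p = 0.107), with SdhC (-0.56 ± 0.26) and ATPsyndelta (-0.54 ± 0.27) next. In VT055068 ND-MWFE was at 53.5 and 72.1 against 93.8 and 101.2 in 0367 and 91.5 and 128.5 in R77H08 (-0.72 ± 0.25, adjusted p = 0.102), followed by ND-20 (-0.56 ± 0.26) and UQCR-6.4 (-0.42 ± 0.23). With 2 libraries per driver none of these differences passed. Leaving out R77H08 replicate B gave 1 call for R77H08, and leaving out R77H08 replicate A gave 1 for VT055068. The bulk table lists ATPsynbetaL at 0 in 2 libraries. Genes of mitochondrial DNA are not analysed here in bulk.

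**Figure D5:**
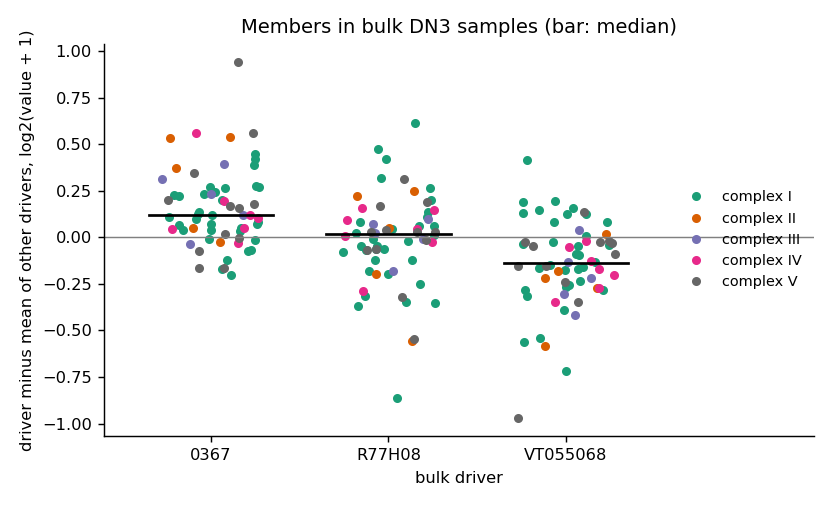
Difference of each member between 1 bulk driver and the mean of the other drivers (vertical axis, log2 of the value + 1) for 0367, R77H08 and VT055068 (horizontal axis), 1 point per member, coloured by complex, with the bar at the median. The medians were 0.12, 0.02 and -0.14, and no member passed an adjusted p of 0.05.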

How the data were processed

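Single cells were sequenced from the 3′ end in droplets, and the count table deposited by the authors holds UMI counts per gene and cell, made with Cell Ranger (STAR and the dm6 build are named in the submitters' processing notes) and filtered by cell, with doublets called by Scrublet excluded in the study. The bulk table holds the authors' normalized signal per gene from Smart-seq3 libraries, 1 column per library, not divided by gene length. Each bulk column was a whole number of reads times a constant (100% of values within 0.01), so reads were recovered for an added count test. Versions of the upstream tools and the use of strand are not given in the sources used here. The 23921 cells held 1001 to 24985 UMIs and 312 to 3498 genes, and 22150 of them lay within 15000 UMIs. All columns were assigned to samples (0 unused).

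UMIs were summed per library and cell group, and genes with at least 50 UMIs in a comparison were tested with edgeR 4.0.16 (quasi-likelihood, TMM, Benjamini-Hochberg over all genes) or, in bulk, limma 3.58.1 on log2 of the signal + 1, for genes of at least 1 in 2 or more libraries. DESeq2 1.42.0 was the alternative tool, in R 4.3.3, and sums and plots used Python 3.11.15, pandas 2.3.3, scipy 1.17.1 and matplotlib 3.10.9. The scripts were tested on simulated data. Gates needed at least 10 cells in a library. Total depth was 3518519 to 32385361 UMIs per single-cell library and 164631 to 505579 recovered reads per bulk library. PCR copies are removed from UMIs. Whether the recovered bulk numbers still hold PCR copies is not given in the sources used here.

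Deviations from the fitted 24 h curve were correlated at 0.19 to 0.61 between libraries of 1 collection date in clock-gated cells (median 0.31, 5 pairs). The other 40 pairs ran from -0.62 to 0.36 (median -0.16), so the ranges overlapped. In Clk+tim-zero cells the pairs of 1 date ran from -0.07 to 0.57 (median 0.30) and the others from -0.56 to 0.41 (median -0.16). The date comes from the labels. The date block was not fitted within gates.

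The named genes are the 3 members of highest level per complex and, per comparison, the 5 with the largest effect among those with an adjusted p under 0.05 or, where none passed, the 3 with the lowest p. The members, gates and lists were chosen with earlier results of these data known. The alternatives were library size scaling, DESeq2, other UMI minimums, gates and cell limits, fits with and without a block, and leaving out each library.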

Additional observations from a re-analysis of the deposited data

Results flagged for a closer look

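In Clk+tim-zero cells, the complex I sum at night had 1 library apart from the others: 70.1 UMIs per 10000 in ZT14 replicate 2, while the other 4 night libraries reached up to 77.2. In the gl sNPF gate the ZT10 library stood above the other day libraries, with a summed level of 248.3 UMIs per 10000 against 173.5 to 181.9. Such a gap is expected by chance in about 1 of 20 groups, and 43 groups were examined.

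The rhythm differed between a gate and the other clock-gated cells, by an interaction term, for 11 of 66 members in the Pdf gate, against 4.84% of all genes, and for 1 of 66, ND-24, in the CNMa Dh31 gate, against 4.6%, so that the latter count is below the share of all genes. Without 1 library these counts were 1 to 24 and 0 to 1.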

How the results depend on the processing

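The count of rhythmic members in clock-gated cells (1) was 21 with the date as replicate block, 28 with DESeq2, 27 in peptide gates, 10 with a gate of 8 UMIs, 3 with a minimum of 500 UMIs or without cells that passed both gates, and 0 with library size only or cells up to 15000 UMIs. The count at night (0) was 11 with DESeq2, 10 in peptide gates and 1 without cells of both groups. Clock-gated against Clk+tim-zero cells gave 31 without the library block (48 with it). Comparisons of gates without that replicate block gave 11 in Pdf, 2 in AstA, 3 in CCHa1, 5 in CNMa Dh31, 0 in gl sNPF, 3 in CapaR, 19 in CrzR ct, 6 in RunxA DIP-zeta, 8 in br Cht6 and 5 in CG34351 mtt. With library size only they gave 38 in Pdf and in CCHa1, 16 in CNMa Dh31, 12 in CapaR, 20 in CrzR ct, 7 in RunxA DIP-zeta, 8 in Pka-C3 hbs and 10 in CG34351 mtt. Rhythms within gates were 15 in AstA, 9 in CCHa1, 2 in CNMa Dh31 and 9 in gl sNPF with library size only, and 19 in Pdf, 8 in CCHa1 and 1 in CNMa Dh31 with 500 UMIs. As a share of UMIs that are neither ribosomal protein nor mitochondrial, the summed level was 243.5 in clock-gated and 286.9 in Clk+tim-zero cells. The causes were not tested.

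Leaving out 1 library gave 0 to 3 rhythmic members and 0 to 3 night calls in clock-gated cells, 0 in Clk+tim-zero cells for both, 0 to 2 for the interaction and 43 to 54 between the cell groups. Against the other clock-gated cells it gave 12 to 20 in Pdf, 16 to 19 in AstA, 13 to 19 in CCHa1, 5 to 12 in CNMa Dh31, 6 to 8 in gl sNPF, 11 to 21 in NPF cry, 8 to 17 in CapaR, 29 to 35 in CrzR ct, 6 to 11 in RunxA DIP-zeta, 19 to 24 in br Cht6, 20 to 31 in Pka-C3 hbs and 18 to 24 in CG34351 mtt. Rhythms within gates were 9 to 47 in Pdf, 1 to 19 in AstA, 2 to 18 in CCHa1, 1 to 29 in CNMa Dh31, 1 to 21 in gl sNPF, 0 to 1 in CrzR ct and 0 in the other 4. In bulk the counts were 0 for 0367 and 0 to 1 for R77H08 and VT055068. The interaction of a single gate with time gave 1 to 24 members in Pdf, 0 to 1 in CNMa Dh31 and gl sNPF and 0 in the other 7, and with library size only it gave 1 in gl sNPF (0 otherwise). No fitted difference of a named gene changed sign. A swing is never negative and so could not, and shifts of its peak were not counted. Over the other settings 46 values of named genes lost and 8 gained an adjusted p under 0.05. When 1 library was left out, 131 lost and 9 gained it. The gates rest on 84 to 807 cells, so that members of low level were measured there with few UMIs, and 2 bulk libraries per driver limit that comparison.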
